A study of Mus musculus with 18 samples.

Results

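Oligodendrocyte lineage genes were followed through 18 microarrays of GFP-sorted interneuron samples of the developing mouse cortex. The genes are Olig1, Olig2, Sox10, Nkx2-2, Pdgfra, Cspg4, Gpr17, Lhfpl3 and Mbp, which is 9 of the 18193 genes that have a probe set annotated to a single gene. They were chosen by symbol with earlier results of these data known, and all 22 of their single-gene probe sets were examined. Counts of these genes, and of the gene lists below, beside the shares of all genes are therefore descriptive and no test of the set. A probe set is a group of short probes that together read one transcript region. Where a gene had several, the one with the highest mean over all arrays stood for the gene, and the others are given beside it.

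The samples formed 6 groups of 3 arrays. Htr3a-KO;GAD65-GFP and GAD65-GFP brains (hereafter Htr3a-KO and control) were each taken on embryonic days E14.5 and E18.5 and 2 days after birth (P2), ages at which, according to the design text, the sorted cells migrate tangentially, enter the cortical plate and settle. Every array carries RNA from cells pooled from at least 4 brains, and the 3 arrays of a group come from 3 litters. Htr3a encodes a subunit of the ionotropic serotonin receptor. All groups carry the GAD65-GFP transgene, in which a promoter of the GABA-synthesising enzyme Gad2 drives GFP, and the labels call the cells interneurons derived from the caudal ganglionic eminence. Values are log2 intensities after robust multi-array averaging (RMA), so a difference of 1 is a doubling of signal. Since each array measures a pool of cells, fewer cells of a type and less RNA per cell cannot be told apart, and precision is limited by having 3 arrays in each group.

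Arrays of a group correlated at 0.984 to 0.996 over all probe sets. Gad1, the main GABA-synthesising enzyme and a defining marker of the labelled cell type, averaged 11.15 to 11.84 in the 6 groups. Gad1 belongs to a list of 10 GABAergic interneuron markers. At E14.5 their mean level was 8.62 in Htr3a-KO and 8.87 in control, with 9.54, 9.18 and 7.88 on the control arrays. At P2 the mean of this list was 8.18 in Htr3a-KO and 8.51 in control. The list includes Htr3a itself, so the genotype difference of its mean takes in the lower Htr3a signal of Htr3a-KO. The median difference of the 10 genes at P2 was -0.22. The mean level of 9 excitatory neuron markers was 10.45 in Htr3a-KO and 10.37 in control at E14.5. At P2 that level was 7.67 in Htr3a-KO and 8.26 in control. The purity of the samples was not tested. Htr3a itself was lower in Htr3a-KO at E18.5 (6.83, against 10.34 in control, limma adjusted p = 7.66e-06) and at P2 (6.84, against 8.79 in control, adjusted p = 0.0109). Htr3a at E14.5 averaged 7.30 in Htr3a-KO and 8.04 in control, a difference that did not pass the test (adjusted p = 0.708). Where its probes lie relative to the deleted part is not given in the sources used here.

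Oligodendrocytes arise from dividing oligodendrocyte precursor cells (OPCs), which are born in successive waves in the embryonic forebrain, the ganglionic eminences included. The basic helix-loop-helix factors Olig2 and Olig1 specify the lineage, and Sox10 and Nkx2-2 act downstream of or beside them in differentiation. Platelet-derived growth factor acts on precursors through Pdgfra and drives their division and migration, Gpr17 marks cells that have committed to differentiate, and Mbp is a structural protein of compact myelin. Pdgfra is also made by meningeal fibroblasts, Cspg4 by pericytes, and the Mbp locus also gives golli transcripts that neurons make.

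Olig1 and Olig2 lie next to each other on chromosome 16, with 0 protein-coding genes between them. Sox10 is on chromosome 15, Nkx2-2 on 2, Pdgfra and Lhfpl3 on 5, Cspg4 on 9, the chromosome that also carries Htr3a, and Gpr17 and Mbp on 18. RefSeq promoter sequences (mouse build GRCm38.p6, 250 bases before to 50 bases after the transcript start) were used for 5 of the 9 genes. The 3 below are shown because the larger measured step of their genes differed: E14.5 to E18.5 for Olig2 and Pdgfra, E18.5 to P2 for Nkx2-2. The E14.5 levels of Olig2 and Nkx2-2 were dim, and for Nkx2-2 the steps differed by test in control alone. Capitals mark matches, on either strand, to the E-box CANNTG, the general motif of basic helix-loop-helix factors, or to ACAAAG or ACAATG, core motifs of Sox factors. The Olig2 promoter spans chr16:91225300-91225599 on the plus strand, that of Nkx2-2 spans chr2:147186353-147186652 on the minus strand, and that of Pdgfra spans chr5:75152001-75152300 on the plus strand.
Olig2: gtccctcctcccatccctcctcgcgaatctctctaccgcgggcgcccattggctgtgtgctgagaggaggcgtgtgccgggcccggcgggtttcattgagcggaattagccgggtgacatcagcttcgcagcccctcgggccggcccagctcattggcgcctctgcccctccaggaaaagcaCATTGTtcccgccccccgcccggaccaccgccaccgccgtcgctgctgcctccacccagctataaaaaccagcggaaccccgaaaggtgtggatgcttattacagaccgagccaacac
Nkx2-2: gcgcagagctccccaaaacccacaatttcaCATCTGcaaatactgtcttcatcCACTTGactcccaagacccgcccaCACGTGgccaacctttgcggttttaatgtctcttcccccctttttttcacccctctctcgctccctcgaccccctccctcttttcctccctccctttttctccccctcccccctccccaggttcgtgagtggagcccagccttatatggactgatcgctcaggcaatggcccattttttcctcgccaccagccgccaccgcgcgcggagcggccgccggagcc
Pdgfra: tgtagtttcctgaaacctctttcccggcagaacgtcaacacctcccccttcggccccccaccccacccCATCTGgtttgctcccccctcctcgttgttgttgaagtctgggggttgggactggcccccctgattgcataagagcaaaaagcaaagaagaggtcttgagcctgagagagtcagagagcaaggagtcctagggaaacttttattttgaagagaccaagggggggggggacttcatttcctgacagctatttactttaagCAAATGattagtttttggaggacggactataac

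In the Olig2 promoter, which is 65% G or C and holds 25 CpG dinucleotides, the ACAATG motif matched once, 68 bases before the start, and CANNTG did not match. Nkx2-2 had 3 E-box matches, at positions -220, -197 and -173, with 17 CpG. Pdgfra had 2, at -182 and 17, with 5 CpG. Of the promoters not shown, Lhfpl3 had 2 matches to CAGCTG, a form of the E-box, and Cspg4 had 0 matches to any of these motifs. Among all 32851 promoters of this length, 72.3% held a CANNTG, 16.3% a CAGCTG and 28.6% an ACAAAG or ACAATG, and the median CpG count was 7. The matches describe letters in these windows and were not set against any binding data.

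Over the first age step, from E14.5 to E18.5, 8 of the 9 genes rose in Htr3a-KO and 7 of 9 in control samples. Of all 14292 genes tested, 6.26% rose in Htr3a-KO and 6.06% in control. The median change of the 9 genes was 2.13 in Htr3a-KO and 1.38 in control, against medians of -0.10 and -0.01 over all genes. Over the second step, from E18.5 to P2, 6 of the 9 genes rose in Htr3a-KO (13.5% of all genes) and 8 of 9 in control (9.96%), with medians of 1.37 and 1.59. From E14.5 to P2 the same 8 genes, all but Mbp, rose in both genotypes (15.6% of all genes in Htr3a-KO and 18% in control). Olig2 in Htr3a-KO and Nkx2-2 in both genotypes averaged less at E14.5 than 5.255, the mean under which probe sets were left out of the test, so they were tested because of their levels at the older ages. The values used here carry no detection call, so a level near or under 5.255 is not shown to lie above background, and a difference taken from it is one of measured intensities, given without a fold.

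**Figure D1:**
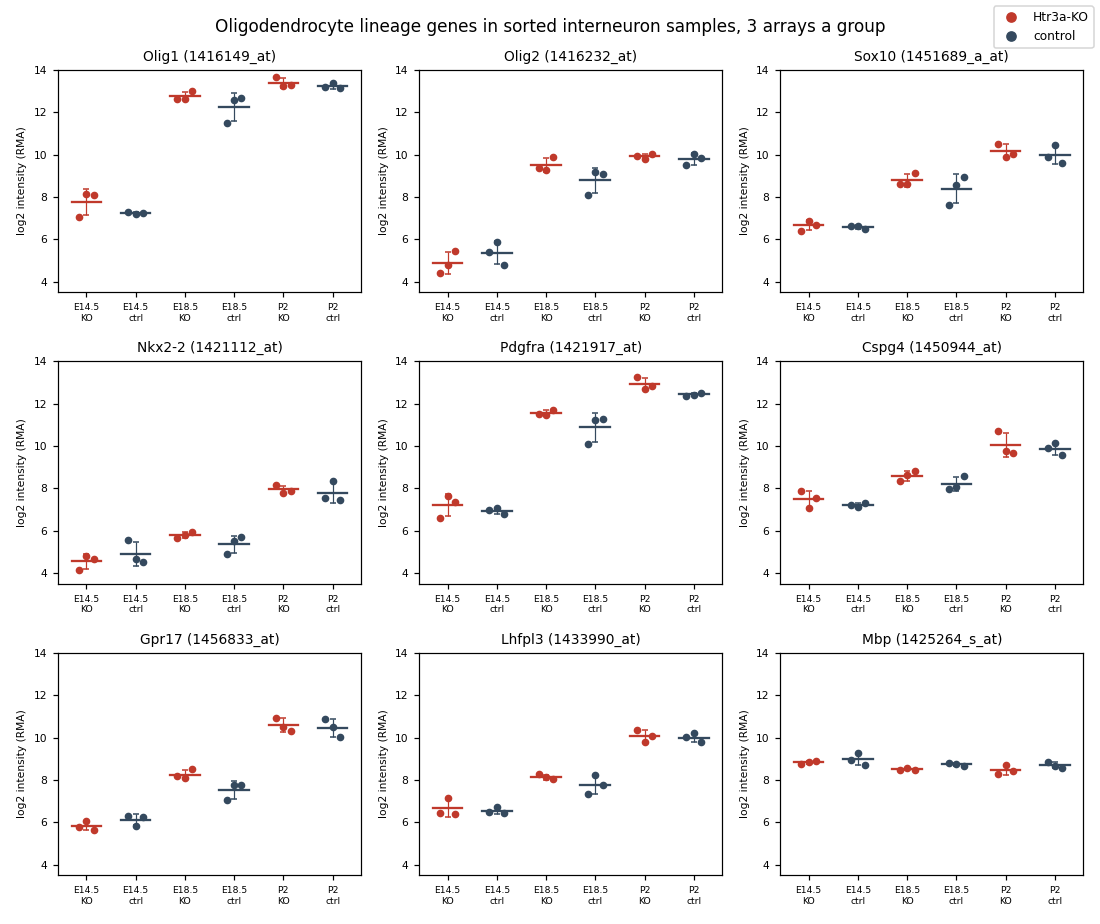
Log2 RMA intensity (vertical axis) of the main probe set of each of the 9 genes in every array, with the 3 ages from left to right and Htr3a-KO left of control within an age; points are arrays, horizontal lines group means and bars SD (n = 3). For Olig1 the E14.5 arrays read 7.06 to 8.14 and all later arrays 11.49 to 13.65, whereas Mbp by its main probe set stayed between 8.27 and 9.26.

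Among the transcription factors, Olig1 and Olig2 made most of their measured rise before birth. Olig1 (probe set 1416149_at) read 7.06, 8.14 and 8.11 in Htr3a-KO and 7.28, 7.21 and 7.25 in control arrays at E14.5. At E18.5 it read 12.63, 12.64 and 12.98 in Htr3a-KO and 11.49, 12.57 and 12.65 in control arrays. At P2 the values were 13.65, 13.21 and 13.27 in Htr3a-KO and 13.17, 13.37 and 13.15 in control. Every E18.5 array lay above every E14.5 array. The first step was 4.98 ± 0.29 in Htr3a-KO (SE, 31.6-fold, adjusted p = 2.19e-07) and 4.99 ± 0.29 in control (adjusted p = 1.06e-07). The second step was 0.63 in Htr3a-KO (adjusted p = 0.114) and 0.99 in control (adjusted p = 0.024), and without array 1 of the E18.5 control group the control value was 0.62 (adjusted p = 0.12). The control call was also lost without P2 control array 2 or 3 (adjusted p = 0.0797 and 0.0501).

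Olig2 (1416232_at) read 4.44, 4.80 and 5.45 in Htr3a-KO and 5.39, 5.90 and 4.81 in control arrays at E14.5, close to the level at which probe sets were left out. At E18.5 it read 9.35, 9.29 and 9.87 in Htr3a-KO and 8.09, 9.17 and 9.08 in control arrays. At P2 the values were 9.95, 9.81 and 10.01 in Htr3a-KO and 9.49, 10.01 and 9.86 in control. The ages E14.5 and E18.5 did not overlap in either genotype. Olig2 rose by 4.61 ± 0.32 in Htr3a-KO (SE, adjusted p = 6.47e-07) and by 3.41 ± 0.32 in control (adjusted p = 1.39e-05) over the first step. Over the second step the difference was 0.42 in Htr3a-KO (adjusted p = 0.33) and 1.01 in control (adjusted p = 0.0351), or 0.66 (adjusted p = 0.17) without array 1 of the E18.5 control group. That call too was lost without P2 control array 2 or 3 (adjusted p = 0.114 and 0.0892).

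Sox10, a factor that later switches on myelin genes, rose at both steps. Its main probe set (1451689_a_at) averaged 6.66 ± 0.24, 8.78 ± 0.30 and 10.15 ± 0.33 at the 3 ages in Htr3a-KO, and 6.59 ± 0.08, 8.38 ± 0.69 and 9.97 ± 0.41 in control (SD, n = 3 each). No array of one age reached the next age in Htr3a-KO or control. The steps were 2.13 and then 1.37 in Htr3a-KO (adjusted p = 3.19e-04 and 0.00302), and 1.79 and then 1.59 in control (adjusted p = 0.00107 and 0.00146). Both other Sox10 probe sets moved far less. Fitted with all 26104 probe sets as rows of their own, 1424985_a_at rose by 0.59 in Htr3a-KO and 0.52 in control between E14.5 and P2, and 1425369_a_at rose by 0.45 in Htr3a-KO and differed by 0.21 in control (adjusted p = 0.0955). Of all probe sets, 13.7% rose over that span in Htr3a-KO and 14.9% in control.

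Nkx2-2, a homeodomain factor of differentiating precursors, had its larger measured step after E18.5. The levels before that step were dim, averaging 5.81 in Htr3a-KO and 5.38 in control at E18.5 and less at E14.5. Its probe set 1421112_at read 4.18, 4.84 and 4.67 in Htr3a-KO and 5.56, 4.66 and 4.53 in control arrays at E14.5. At E18.5 it read 5.66, 5.83 and 5.95 in Htr3a-KO and 4.93, 5.51 and 5.69 in control arrays. At P2 the values were 8.16, 7.81 and 7.89 in Htr3a-KO and 7.57, 8.37 and 7.45 in control. All 6 arrays of P2 lay above all younger ones, while in control E14.5 and E18.5 overlapped. Over the first step Nkx2-2 rose by 1.25 ± 0.29 in Htr3a-KO (SE, adjusted p = 0.00982) and differed by 0.46 ± 0.29 in control (adjusted p = 0.344). Over the second it rose by 2.14 in Htr3a-KO (adjusted p = 1.27e-04) and by 2.42 in control (adjusted p = 5.14e-05).

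Pdgfra, the receptor for the precursor mitogen, followed the early course of Olig1 and Olig2. The main probe set 1421917_at read 6.63, 7.65 and 7.34 in Htr3a-KO and 6.97, 7.06 and 6.80 in control arrays at E14.5. At E18.5 it read 11.53, 11.47 and 11.72 in Htr3a-KO and 10.10, 11.25 and 11.29 in control arrays. At P2 the values were 13.24, 12.70 and 12.83 in Htr3a-KO and 12.36, 12.42 and 12.52 in control. No array of one age overlapped another age within a genotype. Pdgfra rose by 4.37 ± 0.28 in Htr3a-KO (SE, 20.6-fold, adjusted p = 3.12e-07) and by 3.94 ± 0.28 in control (adjusted p = 8.10e-07) at the first step. At the second it rose by 1.35 in Htr3a-KO (adjusted p = 0.00275) and by 1.55 in control (adjusted p = 0.00142). The other Pdgfra probe sets rose less between E14.5 and P2, by 2.73 in Htr3a-KO and 2.05 in control for 1421916_at, and by 2.88 in Htr3a-KO and 2.97 in control for 1438946_at.

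Cspg4, the NG2 proteoglycan of precursor membranes, rose by smaller and more even steps. Its main probe set (1450944_at) averaged 7.49 ± 0.40, 8.60 ± 0.24 and 10.06 ± 0.57 at the 3 ages in Htr3a-KO, and 7.22 ± 0.11, 8.21 ± 0.33 and 9.88 ± 0.28 in control (SD, n = 3 each). The first step was 1.11 in Htr3a-KO (adjusted p = 0.0118) and 0.99 in control (adjusted p = 0.0243), and the second 1.46 in Htr3a-KO (adjusted p = 0.00111) and 1.67 in control (adjusted p = 5.40e-04). Leaving out control array 1 or 2 of E14.5, or control array 3 of E18.5, ended the control call of the first step (adjusted p = 0.0688, 0.0775 and 0.112). The other probe set, 1423341_at, rose more between E14.5 and P2, by 3.81 in Htr3a-KO and 4.42 in control.

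Gpr17, an orphan receptor of cells that have left the precursor state, rose at both steps in both genotypes. Its probe set 1456833_at read 5.78, 6.09 and 5.66 in Htr3a-KO and 6.30, 5.85 and 6.26 in control arrays at E14.5. At E18.5 it read 8.18, 8.09 and 8.50 in Htr3a-KO and 7.04, 7.76 and 7.75 in control arrays. At P2 the values were 10.94, 10.51 and 10.31 in Htr3a-KO and 10.87, 10.51 and 10.03 in control. The 3 ages did not overlap in either genotype, and at E18.5 all Htr3a-KO arrays lay above all control arrays. The first step was 2.41 ± 0.24 in Htr3a-KO (SE, 5.33-fold, adjusted p = 2.83e-05) and 1.38 ± 0.24 in control (2.60-fold, adjusted p = 0.00185). The second was 2.33 ± 0.24 in Htr3a-KO (5.03-fold, adjusted p = 1.45e-05) and 2.95 ± 0.24 in control (adjusted p = 2.23e-06).

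Lhfpl3, a membrane protein gene whose transcript is enriched in precursors, rose by 1.47 in Htr3a-KO (adjusted p = 7.98e-04) and by 1.23 in control (adjusted p = 0.00259) at the first step. At the second it rose by 1.93 in Htr3a-KO (adjusted p = 3.83e-05) and by 2.23 in control (adjusted p = 1.56e-05). Over all 18 arrays its main probe set (1433990_at) ran between 6.41 and 10.34. The other probe set, 1429592_at, differed by 0.40 in Htr3a-KO (adjusted p = 0.398) and 0.30 in control (adjusted p = 0.623) at the first step. From E14.5 to P2 it rose by 2.91 in Htr3a-KO and by 2.72 in control.

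**Figure D2:**
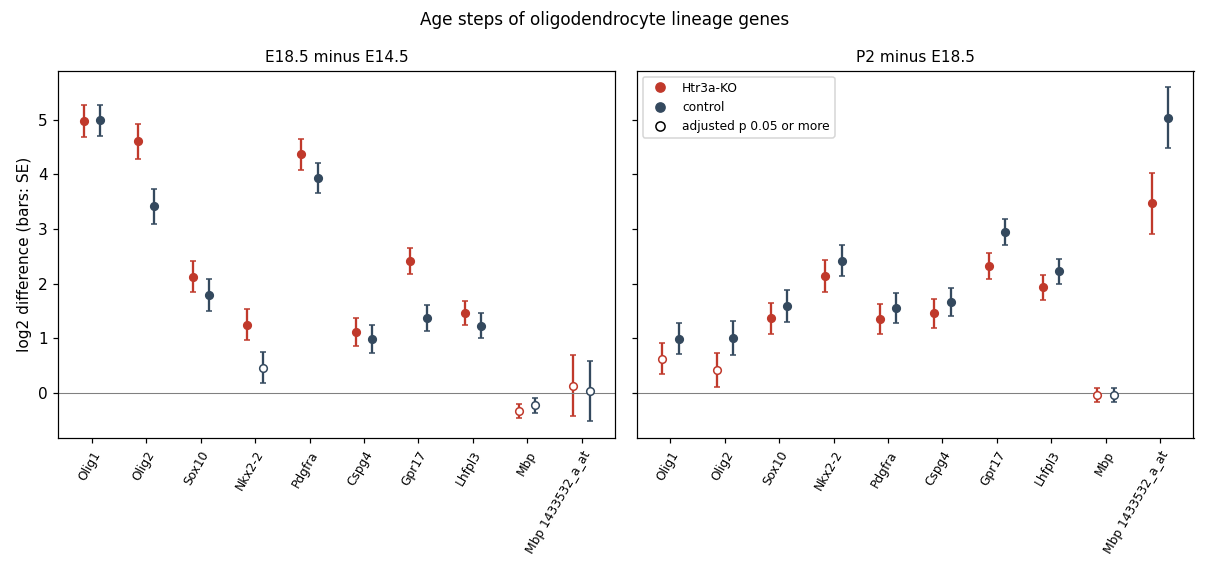
Log2 difference between ages for each gene, E18.5 minus E14.5 in the left panel and P2 minus E18.5 in the right, with Htr3a-KO left of control; bars are SE and open circles did not pass the adjusted threshold of 0.05. Olig1, Olig2 and Pdgfra stand highest in the left panel, at 3.41 to 4.99, and the added Mbp probe set 1433532_a_at stands highest in the right panel, at 3.47 in Htr3a-KO and 5.04 in control.

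The share of the E14.5 to P2 difference in log2 intensity that was present by E18.5 varied over the genes. Olig1 had 88.8% of it by E18.5 in Htr3a-KO and 83.4% in control. For Pdgfra the share was 76.4% in Htr3a-KO and 71.7% in control, and for Sox10 60.9% in Htr3a-KO and 53.0% in control. Gpr17 had 50.9% in Htr3a-KO and 31.8% in control. These shares are of main probe sets, and the order of the genes depended on the probe set. By 1424985_a_at, which moved little, Sox10 had 23.2% in Htr3a-KO and 25.5% in control. Pdgfra had 68.6% in Htr3a-KO and 56.7% in control by 1438946_at, which averaged 5.43 in control at E14.5. Cspg4 had 43.3% in Htr3a-KO and 37.2% in control by its main probe set, and 54.3% in Htr3a-KO and 52.0% in control by 1423341_at. Lhfpl3 had 43.1% in Htr3a-KO and 35.6% in control by its main probe set, and 13.9% in Htr3a-KO and 11.2% in control by 1429592_at. For Olig2 and Nkx2-2 no share is given, since their E14.5 levels were near or under 5.255. The difference between the steps (second minus first) was then tested, a comparison added after the values were seen and in which the E18.5 arrays enter both steps. The first step exceeded the second for Olig1, Olig2 and Pdgfra in both genotypes, with differences of -4.35, -4.19 and -3.02 in Htr3a-KO and of -4.00, -2.41 and -2.38 in control. The adjusted p of these 3 genes was 0.00138, 0.00209 and 0.00417 in Htr3a-KO, where 3.4% of all genes were called that way, and 0.00107, 0.0246 and 0.0152 in control, where 1.83% were. For Olig2 and Nkx2-2 this difference too takes in the dim E14.5 levels.

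In control the second step exceeded the first for Nkx2-2, by 1.96 (adjusted p = 0.0391), and for Gpr17, by 1.57 (adjusted p = 0.0443), where 2.06% of all genes were called that way. Without array 1 of the E18.5 control group these differences were 1.51 (adjusted p = 0.24) and 1.10 (adjusted p = 0.281). Under all alternatives together, the Nkx2-2 call was lost in 7 of 19 and the Gpr17 call in 11 of 20. In Htr3a-KO 0 of the 9 genes had a larger second step by this test (5.07% of all genes). Without array 2 or 3 of the E18.5 control group the control calls of Olig2 (adjusted p = 0.108 and 0.0925) and Pdgfra (adjusted p = 0.0727 and 0.0656) were lost as well, and that of Olig1 was the 1 call left. Without array 1 of the E14.5 control group or array 2 of the P2 control group 3 calls were left.

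Mbp gave opposite accounts through different probe sets. Its main probe set, 1425264_s_at, read 8.47 to 8.88 in Htr3a-KO and 8.67 to 9.26 in control arrays before birth, and 8.27 to 8.69 in Htr3a-KO and 8.58 to 8.85 in control at P2. Between E14.5 and P2 it fell by 0.37 in Htr3a-KO (adjusted p = 0.0352, where 26% of all genes fell) and differed by -0.26 in control (adjusted p = 0.127). The Htr3a-KO call was lost when E14.5 array 1, 2 or 3 or P2 array 1 or 3 of that genotype was left out (adjusted p = 0.0529 to 0.145). Another 2 probe sets, 1425263_a_at and 1451961_a_at, differed by no more than 0.39 between any ages and were not called in any age comparison. The remaining 5 were brighter at P2 than before birth. Before birth 1419646_a_at averaged 6.01 to 6.19, and the others of these 5 were dim, near or under 5.255.

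Probe set 1433532_a_at, the Mbp probe set with the largest spread over the arrays, read 5.13, 5.37 and 4.94 in Htr3a-KO and 5.14, 5.32 and 4.83 in control arrays at E14.5. At E18.5 it read 5.11, 5.34 and 5.38 in Htr3a-KO and 4.84, 4.85 and 5.71 in control arrays. At P2 the values were 9.19, 9.53 and 7.53 in Htr3a-KO and 10.53, 11.38 and 8.60 in control. Every array of P2 lay above every prenatal array, and array 3 was the lowest of its group in both genotypes at P2. Over the second step the signal rose by 3.47 ± 0.56 in Htr3a-KO (SE, adjusted p = 6.04e-04) and by 5.04 ± 0.56 in control (adjusted p = 3.27e-05), from prenatal levels near or under 5.255. The probe set was picked for a spread that includes this rise, and it passed the filter through its P2 levels. These p-values are therefore no separate support for the rise. Over the first step the signal differed by 0.13 in Htr3a-KO (adjusted p = 0.894) and by 0.04 in control (adjusted p = 0.982). At that step 6.93% of all probe sets rose in Htr3a-KO and 4.92% in control.

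Of the other 4 that were brighter at P2, the tested probe sets 1419646_a_at, 1436201_x_at and 1456228_x_at rose over the second step by 2.22, 2.13 and 3.21 in Htr3a-KO and by 3.54, 3.38 and 4.68 in control. Among all probe sets 10.9% rose at that step in Htr3a-KO and 7.82% in control. Probe set 1456228_x_at averaged 5.03 to 5.11 in the prenatal groups and so was tested because of its P2 levels. The fourth, 1454651_x_at, was left out of the test as dim and averaged 5.68 in Htr3a-KO and 7.10 in control at P2. At P2 all 5 averaged lower in Htr3a-KO than in control, and the groups overlapped. For the 4 tested ones the difference was -1.42 (1433532_a_at, 95% interval -2.60 to -0.24), -1.50, -1.39 and -1.41, with adjusted p between 0.678 and 0.732 (0.0345% of all probe sets were called). These probe sets read one gene in the same RNA and are not independent of each other.

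**Figure D3:**
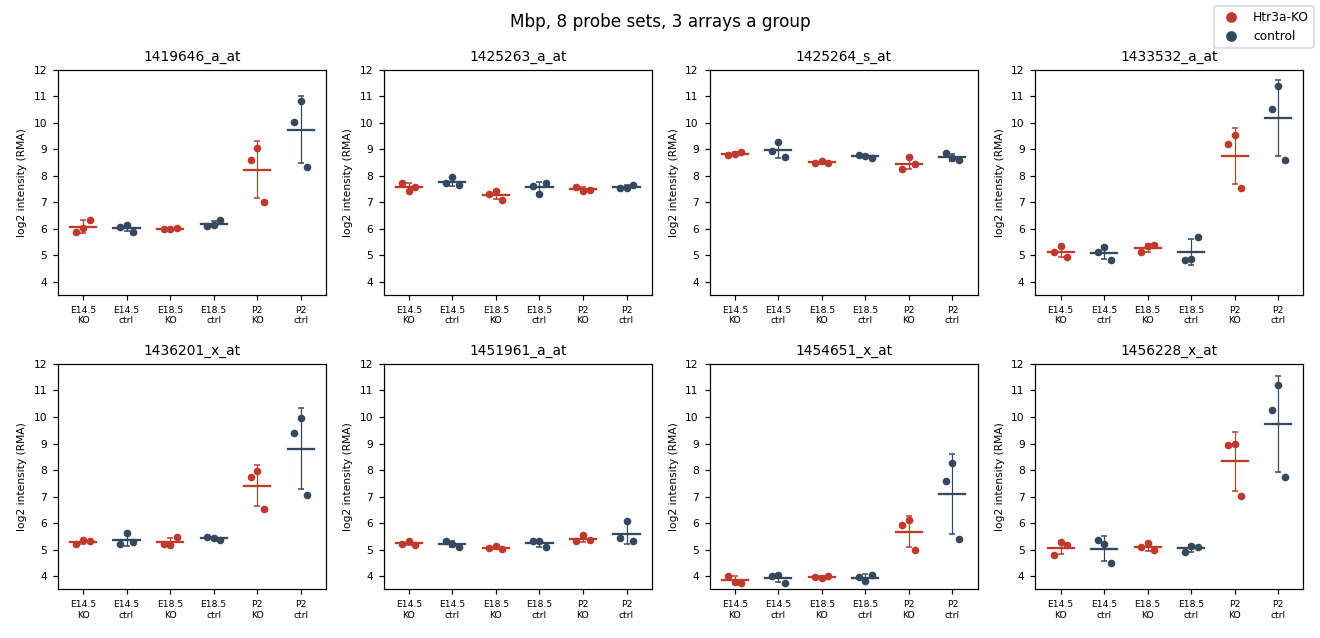
Log2 RMA intensity (vertical axis) of the 8 Mbp probe sets in every array, Htr3a-KO left of control at each age; points are arrays, horizontal lines means and bars SD (n = 3). Panels 1425263_a_at, 1425264_s_at and 1451961_a_at are level, and in the other 5 the prenatal arrays are low and the P2 arrays spread upwards, to 9.53 in Htr3a-KO and 11.38 in control for 1433532_a_at.

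Between genotypes, 0 of the 9 genes passed the test at any of the 3 ages or in the mean over them. Of all genes tested, 0.014%, 0.021% and 0.035% passed at the 3 ages in their order, and 0.294% in the mean. At an unadjusted p under 0.05 the number of the 9 genes was 3 at E18.5 (Olig2, Pdgfra and Gpr17, 12.9% of all genes) and 3 in the mean (Olig1, Pdgfra and Mbp, 11.2%). It was 0 at E14.5 (5.86%) and 0 at P2 (7.58%). At E14.5 the differences, Htr3a-KO minus control, ran from -0.47 for Olig2 to 0.52 for Olig1. At E18.5 they were 0.74 for Gpr17 (95% interval 0.23 to 1.25, adjusted p = 0.254), 0.72 for Olig2 (0.05 to 1.39, adjusted p = 0.358) and 0.69 for Pdgfra (0.10 to 1.29, adjusted p = 0.336). The other 6 lay between -0.23 for Mbp and 0.51 for Olig1, and 8 of 9 were above 0, with a median of 0.44 against -0.06 over all genes. At P2 they ran from -0.24 for Mbp to 0.49 for Pdgfra (95% interval -0.10 to 1.08, adjusted p = 0.701). All these differences are of main probe sets. By 1423341_at, Cspg4 averaged 8.23 in Htr3a-KO and 7.43 in control at E18.5, and 6.16 and a dim 5.13 at E14.5. Pdgfra by 1421916_at averaged 6.63 in Htr3a-KO and 6.44 in control at E18.5. Both other Sox10 probe sets averaged lower in Htr3a-KO at E18.5, at 7.04 against 7.10 and 5.56 against 5.63.

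The arrays of the genotypes did not overlap for 4 of the 9 genes at E18.5 (Olig2, Pdgfra, Gpr17 and Mbp), as for 20.7% of all genes. They did not overlap for 1 gene at P2 (Pdgfra, 9.14% of all genes) and for 0 at E14.5 (9.01%). These counts are of main probe sets. Both other Pdgfra probe sets overlapped at E18.5 and at P2, while 1438946_at did not overlap at E14.5. The other Cspg4 probe set, 1423341_at, did not overlap at E18.5. Array 1 of the E18.5 control group was the lowest of its group for all 8 genes other than Mbp, by 0.57 on average below the group mean. Without that array the E18.5 differences ran from -0.21 for Mbp to 0.50 for Gpr17, with a median of 0.21 and adjusted p between 0.558 and 0.989. When arrays were weighted by their spread, 2 of the 9 genes were called at E18.5, as were 6.13% of all genes: Pdgfra (0.94, adjusted p = 0.0365) and Gpr17 (0.83, adjusted p = 0.0228). That weighting gave array 1 the highest weight of the E18.5 control group (2.11, against 0.48 and 0.93), and without the array the unweighted difference of Pdgfra was 0.30. The mean level of 12 astrocyte marker genes was also lowest on array 1 (7.27, against 7.78 and 8.23 on the other control arrays and 8.34 to 8.58 on the Htr3a-KO arrays of E18.5). Over those 12 genes the median difference, Htr3a-KO minus control, was 0.78 at E18.5. It was 0.86 for 6 endothelial markers, whose mean level averaged 7.61 in Htr3a-KO and 6.85 in control, and 0.72 for 8 mural cell markers, with 7.30 in Htr3a-KO and 6.72 in control. For 12 microglia and macrophage markers it was 0.24 and for 6 meningeal fibroblast markers -0.02, and 0 genes of these 5 lists were called. At E14.5, where the median of the 9 genes was 0.07, the list medians were not confined to small values. They were 0.24 for astrocyte, 0.77 for endothelial, 1.07 for mural cell, 1.35 for microglia and macrophage and 0.61 for meningeal fibroblast markers. At P2, where the median of the 9 was 0.15, they were 0.34, 0.435, 0.205, -1.43 and 0.01 in that order. The part of these cell types in the genotype differences was not tested.

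Whether the size of an age step differed between genotypes was tested directly. For the first step the test called 0 of the 9 genes (0.007% of all genes), with 2 at an unadjusted p under 0.05 (7.22% of all genes), Gpr17 (1.03, adjusted p = 0.685) and Olig2 (1.19, adjusted p = 0.685). The Olig2 value includes -0.47 between its dim E14.5 groups. For the second step it called 0 of the 9 and 0% of all genes, with 0 of the 9 at an unadjusted p under 0.05 (7.23% of all genes), and the differences ran from -0.62 for Gpr17 to -0.01 for Mbp. The calls of Olig1 and Olig2 over the second step in control alone, and of Nkx2-2 over the first step in Htr3a-KO alone, are therefore not shown to differ between genotypes (adjusted p = 0.863, 0.803 and 0.688 for the difference).

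**Figure D4:**
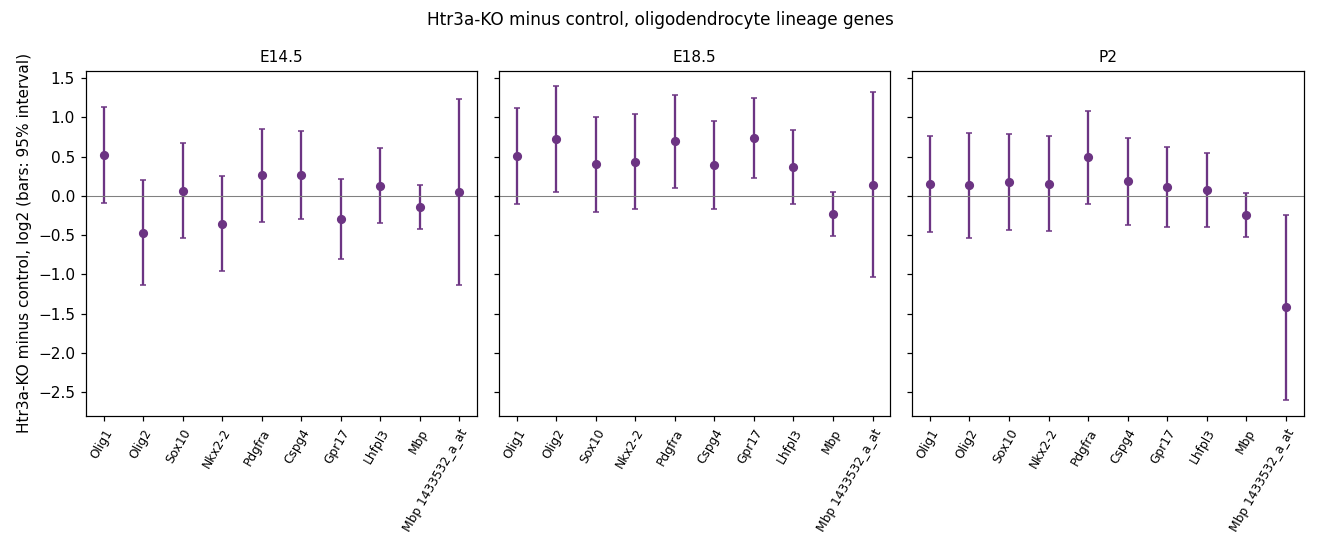
Htr3a-KO minus control at each age, as log2 difference with its 95% interval from the fit, for the 9 genes and the Mbp probe set 1433532_a_at. At E18.5 the 8 genes other than Mbp lie above 0, between 0.37 and 0.74, and at P2 the Mbp probe set 1433532_a_at lies lowest, at -1.42.

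Other genes of the precursor stage rose in part. Of 18 such genes listed, 14 were tested, and 6 of the 14 rose at the first step in Htr3a-KO and 4 in control, then 7 in Htr3a-KO and 8 in control at the second, with 0 falling. The shares of all genes that rose, given above, were 6.26% in Htr3a-KO and 6.06% in control at the first step and 13.5% in Htr3a-KO and 9.96% in control at the second. The shares that fell were 8.88% in Htr3a-KO and 4.93% in control at the first step, and 15% in Htr3a-KO and 9.75% in control at the second, and every list count that follows is read beside these. Their median change over the first step was 0.49 in Htr3a-KO and 0.40 in control, against 2.13 in Htr3a-KO and 1.38 in control for the 9. Tnr, the matrix protein tenascin-R, rose by 1.98 in Htr3a-KO and 1.80 in control at the first step (adjusted p = 8.14e-05 and 1.53e-04). Ptprz1, a receptor phosphatase, rose by 0.94 in Htr3a-KO and 1.04 in control at that step (adjusted p = 0.00556 and 0.0032). Emid1 rose by 1.85 in Htr3a-KO and 1.91 in control at the second step, and Scrg1 by 2.17 in Htr3a-KO and 2.35 in control (adjusted p from 1.12e-06 to 2.44e-04).

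Of 21 genes of premyelinating and myelinating cells, 16 were tested, and 2 rose at the first step in each genotype, Cnp and Bcas1. At the second step 9 rose in Htr3a-KO and 8 in control, again with 0 falling. Cnp, a myelin-associated phosphodiesterase, rose by 1.48 in Htr3a-KO and 1.30 in control at the first step (adjusted p = 0.00843 and 0.0188) and by 1.28 in Htr3a-KO and 1.90 in control at the second (adjusted p = 0.00955 and 0.00106). Ugt8a, which makes the myelin lipid galactosylceramide, rose from E14.5 to P2 by 1.75 in Htr3a-KO and 1.30 in control. After E18.5 it rose by 1.51 in Htr3a-KO and 2.10 in control. Myrf, the factor that switches on myelin genes, rose by 0.71 in Htr3a-KO (adjusted p = 5.91e-04) and 0.37 in control (adjusted p = 0.039).

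Among 14 tested genes of the signals that drive the lineage, the receptor Egfr had much the largest step. It rose by 4.35 in Htr3a-KO (20.4-fold, adjusted p = 2.24e-07) and by 3.90 in control (adjusted p = 7.26e-07) between E14.5 and E18.5. Gli2, an effector of hedgehog signalling, fell by 1.79 in Htr3a-KO and by 1.62 in control at the same step (adjusted p = 0.00795 and 0.0151). In all, 2 of the 14 rose and 3 fell in Htr3a-KO at the first step, and 2 rose and 1 fell in control. At the second step 4 rose in each genotype and 1 fell in Htr3a-KO. Fgfr3 rose then by 1.75 in Htr3a-KO and 1.70 in control (adjusted p = 0.00334 and 0.0052).

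Of 10 inhibitors of oligodendrocyte differentiation, 1 rose and 1 fell in each genotype at the first step, and 2 rose in Htr3a-KO and 4 in control at the second. Apart from the 4 in control, these counts lie within 1 gene of what the shares of all genes give for a list of 10. Lingo1 rose at the first step, by 0.67 in Htr3a-KO and 0.74 in control (adjusted p = 0.0175 and 0.0116). Bmp4, a growth factor that favours astrocytes over oligodendrocytes, rose at the second, by 0.71 in Htr3a-KO and 1.09 in control (adjusted p = 0.0338 and 0.00465). Of 9 factors that mark the regional origin of progenitors, 2 rose and 2 fell in Htr3a-KO and 1 fell in control at the first step. Pax6, a factor of dorsal progenitors, fell by 1.06 in Htr3a-KO and by 1.54 in control (adjusted p = 0.0151 and 0.00173).

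Markers of other cell types were followed in the same arrays. Of 12 astrocyte markers, 5 rose in Htr3a-KO and 1 in control at the first step, and 11 rose in each genotype at the second. Their mean level ran from 7.48 to 7.91 in Htr3a-KO and from 7.02 to 7.82 in control at E14.5, and from 10.79 to 11.45 in Htr3a-KO and 10.35 to 11.24 in control at P2. Of 8 mural cell markers, which bear on Cspg4, 0 rose and 1 fell in Htr3a-KO at the first step. In control 0 were called at that step, where their median difference was 0.41 and the range -0.69 to 1.52. At the second step 3 rose in each genotype, among them Notch3, by 2.41 in Htr3a-KO and 2.49 in control. From E14.5 to P2, 1 of the 8 rose in Htr3a-KO (median difference 0.83, 15.6% of all genes) and 6 in control (1.89, 18%). Of 6 meningeal fibroblast markers, which bear on Pdgfra, 0 were called in either genotype at the first step and 1 (Col1a2) rose in each at the second, with the mean level between 6.17 and 6.68 in Htr3a-KO and between 5.94 and 6.79 in control at E18.5. Of 6 endothelial markers 1 (Slco1c1) rose at each step in each genotype. Of 12 microglia and macrophage markers, 3 rose in control at the second step (Mrc1, Pf4 and C1qc) and 0 in Htr3a-KO, with the mean level at P2 between 6.67 and 7.27 in Htr3a-KO and between 7.03 and 9.63 in control. Of 9 excitatory neuron markers, 4 fell in each genotype at the first step, and 7 fell in Htr3a-KO and 6 in control at the second. Of 10 GABAergic interneuron markers, 1 rose and 1 fell in Htr3a-KO and 2 rose and 2 fell in control at the first step. At the second, 0 were called in Htr3a-KO and 1, Htr3a, fell in control. The part of these cell types in the changes of the 9 genes was not tested. Between genotypes, the calls in all 12 lists were Htr3a and, in the mean over ages, Slco1c1.

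**Figure D5:**
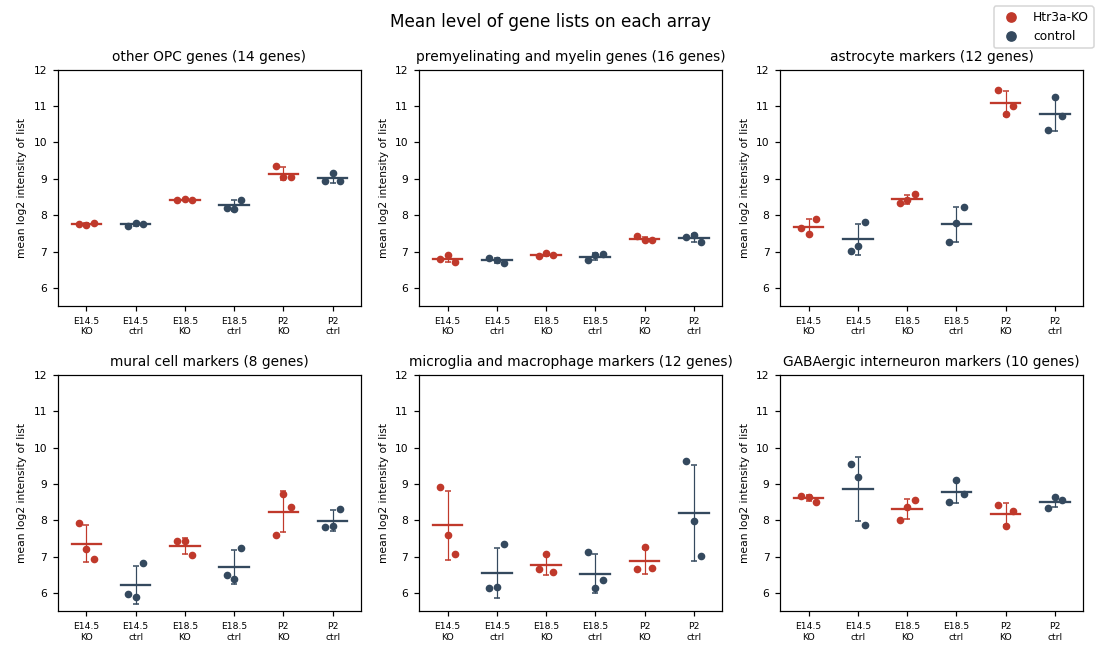
Mean log2 RMA intensity (vertical axis) over the tested genes of 6 lists in every array, Htr3a-KO left of control at each age; points are arrays, horizontal lines means and bars SD (n = 3). The astrocyte list stands at 7.02 to 7.91 at E14.5 and at 10.35 to 11.45 at P2, and the list of other precursor genes at 7.71 to 7.79 at E14.5 and 8.93 to 9.34 at P2.

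The genes whose course over the 18 arrays lay nearest to each member were found by the root mean square difference between the centred log2 values. Olig1, Olig2 and Pdgfra had one another and Egfr as their nearest 3 among all genes tested, at 0.39 between Olig1 and Pdgfra, 0.40 between Olig2 and Egfr and 0.41 between Pdgfra and Egfr. No other member had a member among its nearest 3. Sox10 lay nearest to Plekhb1 (0.26), Cnp (0.33) and Lnx1 (0.37). For Nkx2-2 they were Emp2 (0.32), Scrg1 (0.33) and S100a1 (0.38), and for Cspg4 Arhgap31 (0.25), Acadl (0.26) and Pld1 (0.27). Gpr17 lay nearest to Cbr3 (0.35), Gabrg1 (0.40) and the astrocyte marker Aldh1l1 (0.40), and Lhfpl3 to Ampd3 (0.29), Cspg5 (0.29) and S100a16 (0.31). By its main probe set Mbp lay nearest to the level genes Mtmr9 (0.10), Ppm1j (0.11) and Cog5 (0.12). By probe set 1433532_a_at the nearest was Gpr37l1, at 0.83, where the SD of that probe set over the arrays was 2.16. These distances describe the arrays and carry no test.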

How the data were processed

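RNA of GFP-sorted cells was hybridised to Affymetrix Mouse Genome 430 2.0 arrays. The values deposited by the authors are log2 intensities after RMA, made with Partek Genomic Suite 6.6 per the series' design text. Of 45101 probe sets, 64 controls were left out, 34945 had 1 gene symbol in the array annotation, 932 several and 9160 none.

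Groups came from the sample labels. The 30% of probe sets with the lowest mean (under 5.255) were left out, and for each gene the brightest single-gene probe set on average was kept, which left 14292 genes. limma 3.58.1 (R 4.3.3) fitted 6 group means over 18 arrays (12 residual degrees of freedom), with Benjamini-Hochberg adjustment over all genes and calls at 0.05. The code was tested on simulated data. Named genes are the 9 members, Htr3a, up to 3 genes with the smallest p per list and comparison, and the 3 nearest genes of each member. A gene named for 1 genotype is given in both. Probe set fits used 26104 probe sets. The difference between steps was added after the data were seen. Members and lists were chosen with earlier results of these data known. Alternatives changed the filter, probe set choice, normalization, variance model, replicate block and arrays used.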

Additional observations from a re-analysis of the deposited data

How the results depend on the processing

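Of the counts of called genes recomputed under the alternatives, 258 stayed within 1.5 times the reported count and 9 did not. Array weights called 2 members between genotypes at E18.5, against 0 without them. The test of second minus first step in control called 5 members, but 3 with the replicate block, 2 with only the arrays compared and 1 to 5 with 1 array left out. The share of all genes called under these settings is not given here, so a loss particular to the members is not shown. In Htr3a-KO that test called 3, and 5 with all probe sets. Mbp changed direction with the probe set. Between E18.5 and P2 it rose by 1.65 in Htr3a-KO and 2.43 in control with the mean of its probe sets, and by 3.47 in Htr3a-KO and 5.04 in control with the probe set of largest SD, an alternative chosen after seeing the data. Over the whole span they were 1.54 in Htr3a-KO and 2.40 in control with the mean, and 3.60 in Htr3a-KO and 5.07 in control with that probe set. The Htr3a-KO call of its main probe set over that span was lost with quantile normalization (-0.28, adjusted p = 0.115). Of the values of single members, 1037 kept their side of the threshold, and 44 lost and 9 gained a call. Another 8, all of Mbp, changed direction with a call before or after. A change of direction without a call is counted among the 1037. For Mbp in control between E18.5 and P2 the value was -0.03, and up to 0.03 with 1 array left out. Leaving out 1 array gave 6 to 7 calls for the first control step, 6 to 8 for the second and 8 and 6 for the steps in Htr3a-KO. The cause was not tested.

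Arrays with the same replicate number did not deviate together: the correlation of their deviations was -0.12, -0.01 and -0.04 for E14.5 arrays. It was 0.16, -0.32 and -0.08 for E18.5 arrays, and for P2 arrays -0.20, -0.54 and 0.30. The numbers were therefore not taken as pairs, and with the replicate block the other counts stayed within 1.5 times.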
